A study of Mus musculus with 41 samples.

Results

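Hyaluronan and versican are the main components of the cardiac jelly, the matrix that swells between endocardium and myocardium and forms the cushions from which heart valves arise. The 6 genes described here were matched by symbol and Ensembl identifier, from a set proposed with earlier results of these data known: Has2, Vcan, Cemip, Cd44, Hyal2 and Hapln1. Of these, 5 were measured in all 3 experiments, out of 12694 genes listed in all 3, and Hapln1, which encodes a link protein that clamps versican to hyaluronan, was not analysed here. Has2 encodes the membrane synthase that extrudes hyaluronan, and mice without it form no cardiac jelly. Vcan encodes versican, a large chondroitin sulfate proteoglycan that binds hyaluronan. Cemip and Hyal2 encode proteins that take part in hyaluronan breakdown: Cemip is required for the cleavage of large hyaluronan by several cell types, and Hyal2 is a membrane-anchored hyaluronidase. Cd44 encodes the main cell surface receptor for hyaluronan. Notch signalling in the endocardium is known to act on cushion formation.

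RNA was sequenced from MEEC, a wild-type line of mouse embryonic endocardial cells, in 41 libraries of 13 groups. In the first experiment MEEC lay over OP9 stromal cells at 90% confluence that carried GFP, Dll4 or Jag1 (Dll4 and Jag1 are ligands of Notch receptors), either for 6 h (MEEC at 50% confluency) or for 24 h (MEEC at 25% confluency), with n = 3 libraries per group. In the second, pretreatment for 24 h with DMSO, the vehicle, or with 20 µM RO4929097 preceded 6 h over OP9-GFP (n = 4 per group). RO4929097 inhibits gamma-secretase, the protease whose cut sets the intracellular part of Notch free. In the third, MEEC grew for 38 h, the last 14 h without serum, in wells coated with recombinant DLL4-His (rDLL4) or JAG1-Fc (rJAG1). Those wells held DMSO or 20 µM RO4929097 (written +RO), beside wells with DMSO and no ligand (n = 3 per group). No group received RO4929097 without a ligand in the third experiment, and all results come from 1 cell line. The labels do not say whether MEEC were separated from the OP9 cells before RNA extraction, so a co-culture value may include OP9 RNA, and in such bulk samples fewer cells of a type and less RNA per cell cannot be told apart.

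Libraries held 14.1 to 16.8, 19.4 to 25.2 and 11.2 to 34.2 M reads (M, mega) in the 3 experiments, so that a count of 0 allows a signal of up to 0.221, 0.158 and 0.266 in the shallowest library (3 reads, counting error only). Values are the deposited normalized signal, in which reads are scaled to a common library size. Changes are log2(signal + 1) differences ± SE from limma, a scale that understates the change of low genes. A change passed, or was called, where the p adjusted over all genes of the table lay under 0.05. A blocked fit adds the replicate number in the library titles as a term, in the first experiment within each time unless a single block is named. Of 4 Notch targets, Hey1, Hey2 and Nrarp rose over OP9-Jag1 (1.13 to 2.25) and OP9-Dll4 (0.86 to 1.77) at 24 h, where Hes1 did not pass (0.42 ± 0.11, adjusted p = 0.063, and 0.49 ± 0.11, adjusted p = 0.062). All 4 rose on both recombinant ligands (0.74 to 3.25), and all 4 were lowered by RO4929097 over OP9-GFP and on either ligand (-3.41 to -0.64). Of 12 endothelial markers, 7, 6 and 6 were measured in the 3 experiments, with summed signals of 73.1 to 170.7, and Pecam1, Cdh5 and Tie1 were not analysed here. Of 13 OP9 stroma markers, 7, 7 and 8 were measured. Their summed signal was 3499 to 7409 in the first experiment and 3129 to 5777 in the third, which held no OP9 cells.

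Promoters are shown for the versican, receptor and hyaluronan breakdown genes Vcan, Cd44 and Cemip, each called in at least 1 comparison of ligand or inhibitor. For Cd44 the only such call without a block was for rJAG1+RO against rJAG1. RefSeq (GRCm38.p6) windows from 250 bases before to 50 after the start were matched for 5 of the 6 genes, all but Has2, and searched on both strands for TGGGAA, the core of the site bound by the Notch effector RBPJ, and for CACGTG and CACGCG, letters bound by Hes and Hey repressors. The 250 bases before the start are printed 5′ to 3′, with TGGGAA or its reverse complement TTCCCA in capitals.
Vcan (chr13:89742513-89742762, minus strand): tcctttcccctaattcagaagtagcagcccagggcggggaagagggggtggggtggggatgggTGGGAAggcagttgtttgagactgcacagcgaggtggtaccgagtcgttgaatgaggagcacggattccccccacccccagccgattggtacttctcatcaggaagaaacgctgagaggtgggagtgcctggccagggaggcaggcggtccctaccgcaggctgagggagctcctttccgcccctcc
Cd44 (chr2:102901666-102901915, minus strand): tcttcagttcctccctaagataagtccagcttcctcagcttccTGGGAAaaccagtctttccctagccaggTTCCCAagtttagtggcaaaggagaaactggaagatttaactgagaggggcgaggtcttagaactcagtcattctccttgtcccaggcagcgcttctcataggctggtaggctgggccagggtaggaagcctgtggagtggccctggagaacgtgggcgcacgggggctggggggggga
Cemip (chr7:84086506-84086755, minus strand): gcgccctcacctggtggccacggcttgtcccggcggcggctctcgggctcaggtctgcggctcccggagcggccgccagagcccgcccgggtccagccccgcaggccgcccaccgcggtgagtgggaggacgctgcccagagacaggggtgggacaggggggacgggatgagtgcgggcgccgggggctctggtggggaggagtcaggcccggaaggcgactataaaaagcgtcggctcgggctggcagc
Vcan held 1 match, at bases 64 to 69, which is 187 bases before the start. Cd44 held 2, at bases 44 to 49 and, on the other strand, 72 to 77. Cemip, Hyal2 and Hapln1 held none, and no member held CACGTG or CACGCG in its 300-base window. TGGGAA lies in 25.56% of all 32851 promoters of the same length, CACGTG in 7.15% and CACGCG in 9.27%, so these matches are a description of letters and nothing more.

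The synthase gene Has2 (ENSMUSG00000022367, chr15:56665627-56694539, minus strand, GRCm38) was higher in every group with ligand and no inhibitor than in its control, by 1.44 to 1.99 times. It was lower in every group with RO4929097 than in the same condition without it. At 6 h Has2 stood at 6.08, 7.38 and 8.63 over OP9-GFP, at 9.39, 11.5 and 10.9 over OP9-Dll4, and at 12.0, 8.37 and 12.0 over OP9-Jag1. The 3 OP9-Dll4 libraries lay above all OP9-GFP libraries, while OP9-Jag1 library 2 fell below the highest OP9-GFP library. Neither 6 h difference passed: it was 0.48 ± 0.19 over OP9-Dll4 (adjusted p = 1) and 0.49 ± 0.19 over OP9-Jag1 (adjusted p = 0.76). In the blocked fit the adjusted p was 0.053 for OP9-Dll4 and 0.022 for OP9-Jag1.

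After 24 h Has2 reached 24.4, 18.2 and 29.6 over OP9-Jag1, against 13.1, 9.28 and 14.2 over OP9-GFP, with no overlap. This rise of 0.92 ± 0.19 passed (adjusted p = 0.015). In each of the 3 groups at 24 h library 2 was the lowest. The call was lost without OP9-GFP library 2 (adjusted p = 0.11), OP9-Jag1 library 1 (0.077) or OP9-Jag1 library 3 (0.11), with the difference still between 0.75 and 0.90. Over OP9-Dll4 at 24 h Has2 stood at 20.1, 15.4 and 21.2, again above every OP9-GFP library, where 0.60 ± 0.19 separated the groups (adjusted p = 0.29 without a block, 0.0029 blocked). OP9-Dll4 and OP9-Jag1 overlapped at 24 h, with a Has2 difference of -0.32 (95% interval -0.72 to 0.09).

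On recombinant ligand Has2 stood at 18.2, 14.3 and 15.8 on rJAG1 and at 16.2, 11.2 and 11.4 on rDLL4, against 10.0, 6.88 and 7.40 with DMSO alone. Neither ligand group overlapped the DMSO group. Has2 rose by 0.92 ± 0.17 on rJAG1 (adjusted p = 0.0023, called in 6 of 6 fits without 1 library). On rDLL4 the difference was 0.61 ± 0.17 (adjusted p = 0.069 without a block, 0.0055 blocked). With RO4929097 added, Has2 fell to 5.76, 5.01 and 3.55 on rJAG1 and to 5.27, 5.16 and 4.85 on rDLL4, below every library without inhibitor. Has2 fell to 0.296 times its level on rJAG1 alone (-1.58 ± 0.17, adjusted p = 9.5e-06) and to 0.394 times that on rDLL4 alone (-1.18 ± 0.17, adjusted p = 3e-04), each called in 6 of 6 fits without 1 library. Against DMSO alone, where both ligand and inhibitor differ, Has2 differed by -0.66 ± 0.17 for rJAG1+RO (adjusted p = 0.1 without a block, 0.0079 blocked) and by -0.56 ± 0.17 for rDLL4+RO (adjusted p = 0.14 without a block, 0.016 blocked).

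In MEEC pretreated and then laid over OP9-GFP, Has2 stood at 11.0, 9.58, 15.4 and 12.8 after DMSO and at 7.94, 5.87, 9.48 and 9.31 after RO4929097. The lowest DMSO library lay just above the highest RO4929097 library, and within each replicate number the inhibitor value was lower. Has2 differed by -0.53 ± 0.16, with adjusted p = 0.23 without a block and 0.01 in the blocked fit. Has2 shares 182 bases, 4.3% of its exonic length, with the antisense gene Has2os, and the library kit named in the labels does not mark strand, so reads from those bases cannot be assigned to 1 of the pair.

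**Figure D1:**
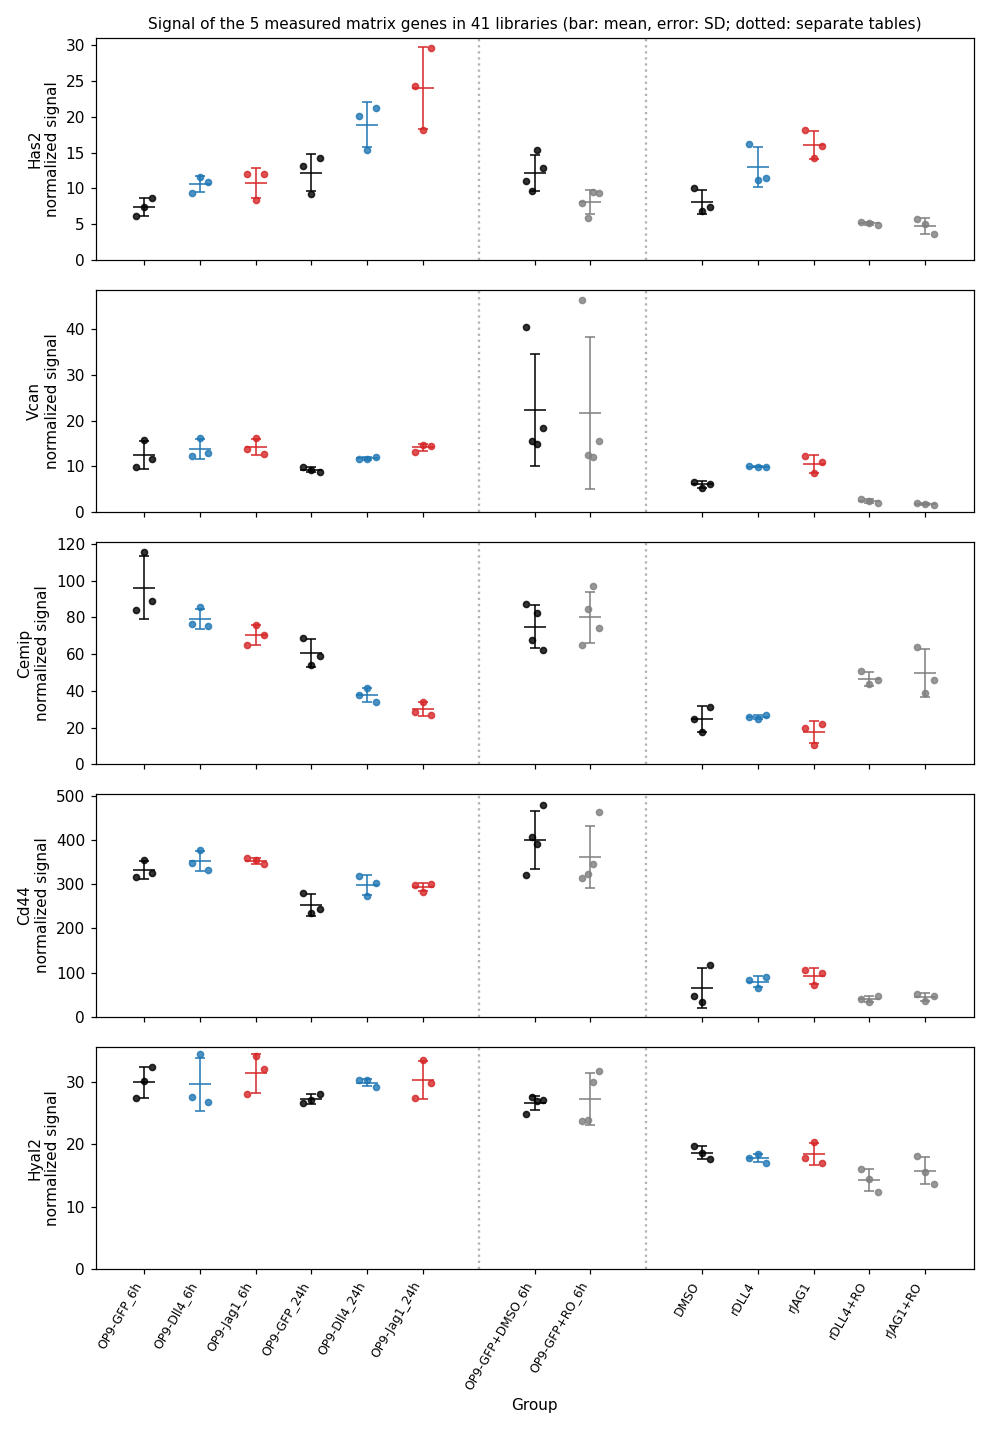
Normalized signal (y axis, linear from 0) of Has2, Vcan, Cemip, Cd44 and Hyal2 in each of 41 libraries by group (x axis), with group mean (bar) and SD (error), and dotted lines between the 3 separately normalized tables. Mean Has2 is highest and mean Cemip lowest over OP9-Jag1 at 24 h in the first experiment and on rJAG1 in the third. Library 1 of both second-experiment groups stands far above the rest for Vcan.

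The versican gene Vcan (ENSMUSG00000021614, chr13:89655312-89742509, minus strand) showed the largest log2 fall of the 5 genes with RO4929097 on recombinant ligand. Vcan stood at 12.3, 8.48 and 11.1 on rJAG1 and at 10.0, 9.98 and 9.90 on rDLL4, against 6.65, 5.28 and 6.23 with DMSO. All ligand libraries lay above all DMSO libraries. The rise was 0.71 ± 0.14 on rJAG1 (adjusted p = 0.0037, called in 6 of 6 fits without 1 library) and 0.64 ± 0.14 on rDLL4 (adjusted p = 0.019). The rDLL4 call was held in 2 of 6 such fits: without DMSO library 2 or rDLL4 library 1, 2 or 3 the adjusted p was 0.064 to 0.09, and it was 0.053 when only those 2 groups were fitted. For rDLL4 against rJAG1 the Vcan difference was -0.07 (95% interval -0.37 to 0.23).

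With inhibitor, Vcan fell to 2.09, 1.75 and 1.61 on rJAG1 and to 2.85, 2.53 and 1.99 on rDLL4. Every one of these 6 libraries lay below every library with DMSO. Relative to the same ligand without inhibitor Vcan was 0.171 times as high on rJAG1 (-2.03 ± 0.14, adjusted p = 1.1e-07) and 0.246 times as high on rDLL4 (-1.67 ± 0.14, adjusted p = 1.7e-06). Vcan with ligand and inhibitor was also below DMSO without ligand, by -1.32 ± 0.14 for rJAG1+RO (adjusted p = 0.00035) and -1.03 ± 0.14 for rDLL4+RO (adjusted p = 0.0016). These 4 falls were called in 6 of 6 fits without 1 library each, and the rDLL4+RO difference from DMSO did not pass with only those 2 groups fitted (adjusted p = 0.057).

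Over OP9 cells Vcan moved less. At 24 h it stood at 13.3, 14.7 and 14.5 over OP9-Jag1, 11.5, 11.6 and 12.1 over OP9-Dll4, and 9.81, 9.20 and 8.78 over OP9-GFP, so the 3 groups did not overlap. Vcan rose over OP9-Jag1 by 0.56 ± 0.14 (adjusted p = 0.041), a call that was lost in each of the 6 fits without 1 library (adjusted p 0.088 to 0.16) and with quantile normalization (0.062), while the blocked fit gave 2e-04. The difference over OP9-Dll4 was 0.31 ± 0.14 (adjusted p = 0.64 without a block, 0.037 blocked). At 6 h Vcan overlapped in all 3 groups, with 9.97 to 15.8 over OP9-GFP, 12.3 to 16.3 over OP9-Dll4 and 12.7 to 16.1 over OP9-Jag1.

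After DMSO or RO4929097 and 6 h over OP9-GFP, Vcan stood at 40.6, 15.6, 14.9 and 18.4 with DMSO and at 46.4, 12.6, 12.0 and 15.7 with RO4929097. Library 1 of each group stood apart from the other 3. The difference was -0.15 ± 0.41 (adjusted p = 0.95), and -0.27 ± 0.12 (adjusted p = 0.51) without both libraries numbered 1, a choice made after seeing the data. In both libraries numbered 1, 3 of the 7 measured OP9 stroma markers lay above the other 6 libraries: Pdgfrb at 25.2 and 27.0 against 1.23 to 3.39, Pdgfra at 32.9 and 33.7 against 12.9 to 17.4, and Cxcl12 at 931 and 1034 against 176 to 287. The summed list was 5307 and 4245 in those libraries and 3470 to 4749 in the other 6, and the part of these markers in the Vcan values was not tested.

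The breakdown gene Cemip (ENSMUSG00000052353, chr7:83932857-84086502, minus strand) ran opposite to Has2 over OP9-Jag1 and OP9-Dll4 and with inhibitor on recombinant ligand. At 24 h Cemip stood at 28.8, 34.2 and 27.0 over OP9-Jag1 and at 37.7, 41.6 and 33.8 over OP9-Dll4, against 69.0, 54.0 and 59.1 over OP9-GFP. Both ligand groups lay wholly below OP9-GFP. The fall over OP9-Jag1 to 0.494 times the control was -0.99 ± 0.12 (adjusted p = 0.00042), called in 6 of 6 fits without 1 library. Over OP9-Dll4 Cemip fell to 0.621 times the control (-0.67 ± 0.12, adjusted p = 0.017). That call was lost without OP9-Dll4 library 1 or 3 or OP9-GFP library 1 or 3 (adjusted p 0.064 to 0.13). Between the ligands the Cemip difference at 24 h was 0.32 (95% interval 0.07 to 0.58, unadjusted p = 0.017) and did not pass over all genes (adjusted p = 1).

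At 6 h Cemip stood at 64.9, 76.0 and 70.3 over OP9-Jag1, below all OP9-GFP libraries at 84.1, 115.7 and 88.8, and at 76.4, 85.5 and 75.3 over OP9-Dll4. The difference over OP9-Jag1 was -0.43 ± 0.12 (adjusted p = 0.32 without a block, 0.0065 blocked), and over OP9-Dll4 -0.27 ± 0.12 (adjusted p = 1). The change of the OP9-Jag1 effect from 6 h to 24 h was -0.56 ± 0.17 for Cemip (adjusted p = 1), and passed in the blocked fit (adjusted p = 0.023).

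With recombinant ligand alone Cemip did not pass. It stood at 20.0, 10.7 and 21.9 on rJAG1, 25.7, 24.9 and 26.9 on rDLL4, and 24.8, 17.5 and 31.4 with DMSO, which overlapped both. The differences from DMSO were -0.49 ± 0.24 on rJAG1 (adjusted p = 0.25) and 0.10 ± 0.24 on rDLL4 (95% interval -0.40 to 0.61). The rDLL4 libraries lay above all rJAG1 libraries, by 0.59 ± 0.24 (95% interval 0.09 to 1.096, adjusted p = 0.58). With RO4929097 Cemip stood at 63.9, 38.7 and 46.1 on rJAG1 and at 50.9, 43.5 and 45.7 on rDLL4, above every other library of the experiment. Cemip rose 2.83 times on rJAG1 (1.48 ± 0.24, adjusted p = 0.00035, 6 of 6 fits without 1 library). On rDLL4 it rose 1.81 times (0.83 ± 0.24, adjusted p = 0.035), and this call was lost in each of the 6 fits without 1 library (adjusted p 0.074 to 0.11). Against DMSO alone Cemip differed by 0.99 ± 0.24 for rJAG1+RO (adjusted p = 0.067 without a block, 0.0052 blocked) and 0.93 ± 0.24 for rDLL4+RO (adjusted p = 0.072 without a block, 0.0055 blocked). Over OP9-GFP the inhibitor groups overlapped, with Cemip at 87.3, 67.9, 82.2 and 62.2 after DMSO and 64.8, 84.6, 97.0 and 74.2 after RO4929097 (0.09, 95% interval -0.20 to 0.39).

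**Figure D2:**
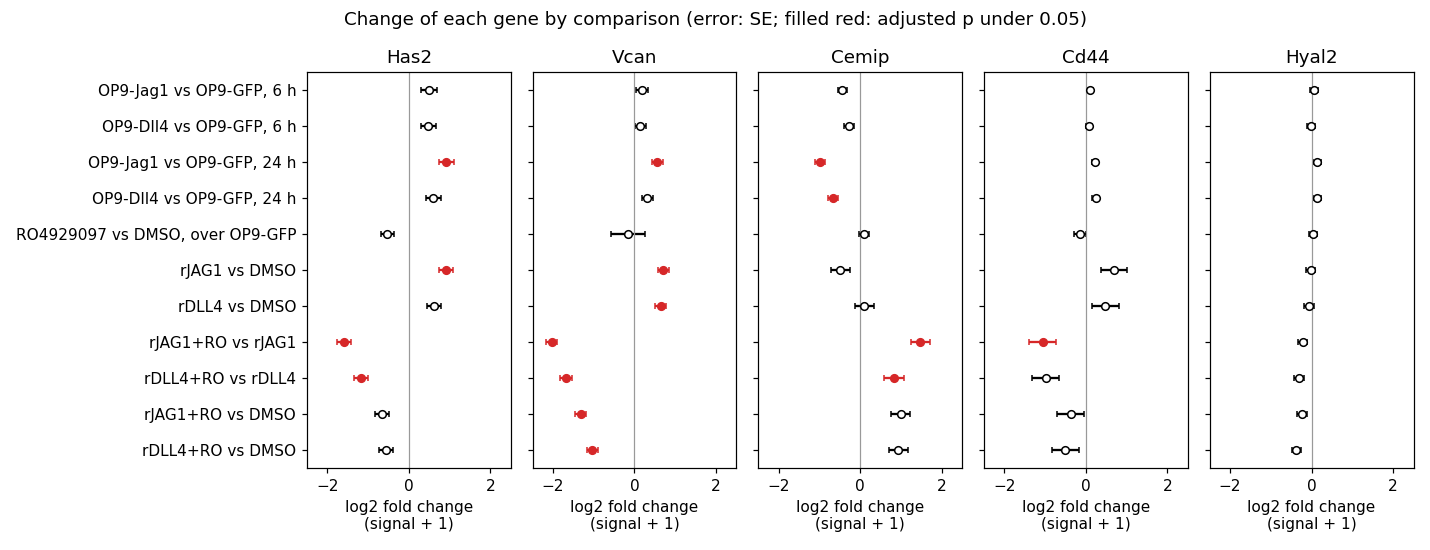
Log2 fold change of signal + 1 (x axis) with SE for the 5 genes in 11 comparisons (y axis), filled red where the adjusted p was under 0.05. Has2 and Vcan lie on one side and Cemip on the other with inhibitor on either ligand, and Hyal2 stays within 0.4 of 0.

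The receptor gene Cd44 (ENSMUSG00000005087, chr2:102811141-102901665, minus strand) had the highest signal per exonic kilobase of the 5 genes in each group. Cd44 stood at 298, 283 and 301 over OP9-Jag1 and at 318, 274 and 302 over OP9-Dll4 at 24 h, against 281, 236 and 243 over OP9-GFP. The differences were 0.22 ± 0.08 (adjusted p = 0.2) and 0.24 ± 0.08 (adjusted p = 0.29). In the blocked fit both passed, at adjusted p = 0.0027 and 0.0025. At 6 h they were 0.09 ± 0.08 and 0.08 ± 0.08 (adjusted p = 1 for both).

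On recombinant ligand Cd44 stood at 106.5, 72.6 and 99.2 on rJAG1 and at 83.2, 65.5 and 89.6 on rDLL4, against 47.0, 32.2 and 117.6 with DMSO. DMSO library 3 was higher than every ligand library. The differences were 0.69 ± 0.33 on rJAG1 (adjusted p = 0.25) and 0.48 ± 0.33 on rDLL4 (adjusted p = 0.74). Without DMSO library 3 they were 1.21 ± 0.21 (adjusted p = 0.001) and 1.00 ± 0.21 (adjusted p = 0.0098), and without DMSO library 2 they were 0.29 and 0.08. With RO4929097 Cd44 stood at 50.9, 34.2 and 46.9 on rJAG1 and at 39.9, 33.3 and 46.1 on rDLL4, below the same ligand without inhibitor. Cd44 fell by 1.06 ± 0.33 on rJAG1 (adjusted p = 0.035), a call lost without rJAG1 library 1 or 3 or rJAG1+RO library 2 or 3 (adjusted p 0.072 to 0.14). On rDLL4 the difference was -0.98 ± 0.33 (adjusted p = 0.073), which passed when only those 2 groups were fitted (0.00087). Over OP9-GFP Cd44 ran from 321 to 482 after DMSO and from 315 to 466 after RO4929097 (-0.15, 95% interval -0.45 to 0.16).

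The hyaluronidase gene Hyal2 (ENSMUSG00000010047, chr9:107567945-107572779, plus strand) passed in none of the 18 limma comparisons without a block, nor in any edgeR comparison. In the first experiment its group means ran from 27.3 to 31.5, with all groups overlapping the next in order. The 24 h difference over OP9-Jag1 was 0.14 (95% interval -0.07 to 0.35). In the third experiment Hyal2 stood at 19.8, 18.6 and 17.6 with DMSO, at 17.9, 18.5 and 17.1 on rDLL4 and at 16.0, 14.4 and 12.4 with inhibitor on rDLL4. That group lay below both, by -0.31 ± 0.11 from rDLL4 alone (adjusted p = 0.1) and -0.37 ± 0.11 from DMSO (adjusted p = 0.14 without a block, 0.024 blocked). With rJAG1 and inhibitor Hyal2 was 18.1, 15.6 and 13.7, overlapping rJAG1 alone at 17.9, 20.4 and 17.0.

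Read against all genes, the member counts were as follows. Over OP9-Jag1 at 24 h, 3 of 5 members passed where 2.02% of genes did, and over OP9-Dll4 at 24 h, 1 of 5 where 0.511% did. In the blocked fit these were 4 of 5 and 4 of 5, where 10.9% and 5.82% of genes passed, and with a single block 2 of 5 passed over OP9-Dll4 where 1.78% did. At 6 h no member passed over OP9-Jag1 (0.101% of genes) or OP9-Dll4 (0.0072%), while Has2 and Cemip had an unadjusted p under 0.05 in both, and limma and edgeR each called 0. In the blocked fit 2 passed over OP9-Jag1 at 6 h, where 3.36% of genes did. Comparing the feeders with each other, limma and edgeR called 0 members at 6 h (0% of genes) and 0 at 24 h (0.0288%), with 0 and 1 members at an unadjusted p under 0.05. The change of either feeder effect from 6 h to 24 h was called for 0 members by limma and edgeR (0.0072% of genes for each ligand), with 1 at an unadjusted p under 0.05, Cemip, in each. In the blocked fit 1 passed for OP9-Jag1, where 1.31% of genes did.

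On rJAG1 2 of 5 members passed where 9.58% of genes did, and on rDLL4 1 of 5 where 3.5% did, or 2 of 5 in the blocked fit where 6.47% did. With RO4929097 4 of 5 passed on rJAG1 (18.4% of genes) and 3 of 5 on rDLL4 (10.7%). Against DMSO alone 1 of 5 passed for rJAG1+RO (0.94%) and 1 of 5 for rDLL4+RO (1.4%), or 3 of 5 (2.9%) and 4 of 5 (4.38%) in the blocked fit. Over OP9-GFP limma and edgeR called 0 of 5 with the inhibitor (0.909% of genes) with 1 at an unadjusted p under 0.05, Has2, and 1 of 5 in the blocked fit (3.29%). Between rDLL4 and rJAG1 both tools called 0 (0.231%), with Cemip at an unadjusted p under 0.05. With inhibitor present in both, limma and edgeR called 0 (0% of genes), limma had 0 and edgeR 1 at an unadjusted p under 0.05, and the Vcan difference between rDLL4+RO and rJAG1+RO was 0.29 (95% interval -0.01 to 0.59). Several of these comparisons share their control libraries.

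Over OP9-GFP, without added ligand, 3 members differed between 6 h and 24 h: Has2, Cemip and Cd44. MEEC density differed between the times by design, so time and density cannot be told apart. From 6 h to 24 h Has2 rose by 0.65 ± 0.19 (adjusted p = 0.027), Cemip fell by 0.65 ± 0.12 (adjusted p = 0.0019) and Cd44 fell by 0.39 ± 0.08 (adjusted p = 0.0022). Those 3 of 5 members stand beside 19.2% of all genes. The Has2 call was lost without OP9-GFP library 1 or 3 at 24 h or library 1 or 2 at 6 h (adjusted p 0.068 to 0.1). Vcan differed by -0.37 ± 0.14 (adjusted p = 0.065) and Hyal2 by -0.13 ± 0.10 (adjusted p = 0.38).

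The balance of the synthase and breakdown genes was followed as the ratio of Has2 to Cemip signal in each library, a description without a test. Over OP9-GFP the ratio was 0.0723, 0.0638 and 0.0972 at 6 h and 0.189, 0.172 and 0.240 at 24 h. Over OP9-Dll4 it was 0.123, 0.135 and 0.144 at 6 h and 0.534, 0.370 and 0.629 at 24 h, and over OP9-Jag1 it was 0.186, 0.110 and 0.171 at 6 h and 0.847, 0.533 and 1.097 at 24 h. Each ligand group lay above OP9-GFP at its own time. On recombinant ligand the ratio was 0.911, 1.33 and 0.725 on rJAG1 and 0.631, 0.451 and 0.425 on rDLL4, against 0.403, 0.393 and 0.236 with DMSO. With RO4929097 it was 0.0901, 0.130 and 0.0771 on rJAG1 and 0.104, 0.119 and 0.106 on rDLL4, the lowest of that experiment. Over OP9-GFP it ran from 0.126 to 0.206 after DMSO and from 0.0694 to 0.126 after RO4929097, with the groups meeting at their edge.

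**Figure D3:**
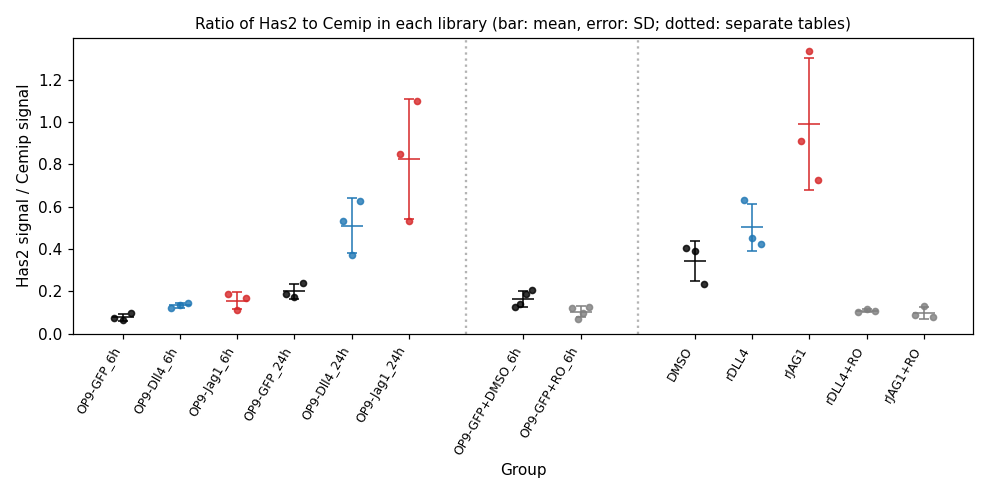
Ratio of Has2 to Cemip signal (y axis, linear from 0) in each library by group (x axis), with mean (bar) and SD (error), and dotted lines between separately normalized tables. The ratio is highest over OP9-Jag1 at 24 h (0.826 ± 0.283) and on rJAG1 (0.990 ± 0.312), and near 0.1 in both groups with ligand and inhibitor.

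Per kilobase of exonic length, the signal levels over OP9-GFP at 6 h ordered as Cd44 (49.1 ± 3.04), Hyal2 (9.12 ± 0.76), Cemip (7.86 ± 1.40), Has2 (1.74 ± 0.30) and Vcan (0.864 ± 0.207), where Hyal2 and Cemip lie within their spread. Over OP9-Jag1 at 24 h Has2 per kilobase (5.68 ± 1.34) lay above Cemip (2.45 ± 0.31), as over OP9-Dll4 at 24 h (4.46 ± 0.74 and 3.08 ± 0.32). In the third experiment Has2 stood at 3.80 ± 0.46 and Cemip at 1.43 ± 0.49 on rJAG1. With DMSO they stood at 1.91 ± 0.39 and 2.01 ± 0.57. On rJAG1 with inhibitor the order seen on rJAG1 alone was turned, with Cemip at 4.05 ± 1.06 and Has2 at 1.13 ± 0.27. In the order of group means within the first experiment, neighbours that did not overlap were OP9-GFP and OP9-Dll4 at 6 h and OP9-GFP and OP9-Dll4 at 24 h for Has2, OP9-Dll4 and OP9-GFP at 24 h for Cemip and for Vcan, and OP9-GFP and OP9-Jag1 at 24 h for Cd44.

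Across libraries, the gene whose pattern was most like Has2 by the mean of 3 within-table Pearson correlations (18, 8 and 15 libraries) was Wisp1 (0.93), followed by Uck2 (0.93) and Col5a1 (0.91). For Vcan these were Rasa3 (0.88), Lhfpl2 (0.87) and Plxnd1 (0.87), and for Cemip 9330182L06Rik (0.88), Hook1 (0.83) and Sft2d2 (0.82). Cd44 was most like Tnfaip3 (0.92), Polr1e (0.89) and Ankrd1 (0.89), and Hyal2 like Ptgis (0.74), Scarf2 (0.73) and Actl6a (0.71). The libraries fall into treatment groups and share their normalization, so these values describe likeness only and carry no test. Has2 and Vcan had a correlation of 0.95 in the third experiment and 0.10 and 0.01 in the first and second.

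Other genes of the hyaluronan and versican matrix were read from a list of 70 genes, 1 of them searched under both of its symbols (Cemip2 and Tmem2), of which 51, 47 and 47 were measured in the 3 experiments. Over OP9-Jag1 at 24 h, 2 of 51 rose and 1 fell (2.02% of all genes passed), with a list median of 0.01 beside 0.00 for all genes. Acan, which encodes aggrecan, a proteoglycan related to versican, stood at 3.92 ± 1.71 against 0.894 ± 0.262 over OP9-GFP (1.33 ± 0.22, adjusted p = 0.0038). The protease gene Adamts4, whose product cleaves versican and aggrecan, stood at 5.89 ± 0.19 against 2.45 ± 0.41 (1.00 ± 0.17, adjusted p = 0.0048). Csgalnact1, which encodes an enzyme that starts chondroitin sulfate chains, fell to 35.3 ± 5.21 from 55.3 ± 3.73 (-0.64 ± 0.11, adjusted p = 0.0038). In the blocked fit 7 rose and 6 fell (10.9% of genes). Over OP9-Dll4 at 24 h only Acan passed among the 51 (3.42 ± 0.36, 1.23 ± 0.22, adjusted p = 0.017), where 0.511% of genes did, and 4 rose and 4 fell in the blocked fit (5.82%). At 6 h limma and edgeR called 0 of 51 over either feeder, with 6 (OP9-Jag1) and 1 (OP9-Dll4) at an unadjusted p under 0.05, and in the blocked fit 2 rose and 3 fell over OP9-Jag1 (3.36% of genes).

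On rJAG1, 9 of 47 rose and 4 fell, where 9.58% of all genes passed (list median -0.01, all genes 0.00). The genes that rose included 2 of 7 for hyaluronan synthesis and 3 of 5 versican matrix partners. With the block 10 rose and 7 fell (15.1% of genes). Acan stood at 3.43 ± 0.42 on rJAG1 and at 1.74 ± 0.61 on rDLL4, against 0.140 ± 0.084 with DMSO, where its libraries held 4, 1 and 3 reads. The fitted change was 1.96 ± 0.17 on rJAG1 (adjusted p = 1.9e-06) and 1.24 ± 0.17 on rDLL4 (adjusted p = 0.00048). With inhibitor on rJAG1 all 3 libraries held 0 Acan reads, so Acan on rJAG1 was at least 21.9-fold higher than the floor of 3 reads per library. Gfpt2, a rate-limiting enzyme of the hexosamine route that supplies a hyaluronan building block, stood at 8.42 ± 0.70 on rJAG1 and 6.96 ± 0.82 on rDLL4 against 3.72 ± 0.80 with DMSO. It fell to 2.82 ± 0.49 and 2.76 ± 0.80 with inhibitor (-1.31 ± 0.17, adjusted p = 5.1e-05, and -1.10 ± 0.17, adjusted p = 0.00048).

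Adamts9, another protease gene, moved the other way from Adamts4: it stood at 25.5 ± 2.81 on rJAG1 and 40.5 ± 5.09 on rDLL4, against 76.1 ± 4.37 with DMSO, and at 104 ± 6.07 with rJAG1 and inhibitor. It was the 1 list gene that differed between rDLL4 and rJAG1 (0.65 ± 0.09, adjusted p = 0.0087), where 0.231% of genes did, and in the blocked fit (0.88%) Csgalnact1 was also called (0.58, adjusted p = 0.0055, or 0.06 without a block). Csgalnact1 fell on rJAG1 (20.3 ± 0.55 against 52.1 ± 10.3, -1.29 ± 0.12, adjusted p = 3.9e-06) and stood at 63.6 ± 3.12 with inhibitor. Ptx3, whose product stabilizes hyaluronan in some matrices, stood at 118 ± 12.4 on rJAG1 and 135 ± 6.18 on rDLL4 against 189 ± 27.2 with DMSO. With inhibitor it reached 353 ± 37.9 and 278 ± 27.6, higher than DMSO (0.90 ± 0.11, adjusted p = 0.00077, and 0.56 ± 0.11, adjusted p = 0.022). Hbegf, an ErbB ligand gene, stood at 25.2 ± 2.24 on rJAG1 and 10.5 ± 1.61 with inhibitor (-1.20 ± 0.13, adjusted p = 1.1e-05).

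On rDLL4, 3 of the 47 rose and 3 fell, where 3.5% of genes passed (list median 0.06, all genes 0.00), or 6 and 3 in the blocked fit (6.47%). Comparing rJAG1 plus inhibitor with rJAG1, 4 of 47 rose and 12 fell, where 18.4% of genes passed (list median -0.05, all genes 0.01), or 11 and 16 in the blocked fit (27.1%). For rDLL4 plus inhibitor against rDLL4, 3 rose and 8 fell, where 10.7% of genes passed (list median -0.09, all genes 0.01). Against DMSO alone 2 of 47 rose for rJAG1+RO, Ptx3 and Adamts9 (0.94% of genes), and in the blocked fit 6 rose and 1 fell (2.9%). For rDLL4+RO 1 rose, Ptx3, and 1 fell, Hbegf (-0.72 ± 0.13, adjusted p = 0.012), where 1.4% of genes passed, or 4 and 1 in the blocked fit (4.38%). Over OP9-GFP the inhibitor lowered 3 of 47 genes and raised 0 (0.909% of genes), or 6 and 1 in the blocked fit (3.29%). The 3 were Acan (0.50 ± 0.34 against 2.04 ± 0.61, -1.02 ± 0.20, adjusted p = 0.043), Gfpt2 (5.31 ± 0.76 against 8.82 ± 0.73, -0.64 ± 0.11, adjusted p = 0.024) and the matrix partner Fbln2 (963 ± 71.3 against 1283 ± 81.4, -0.42 ± 0.08, adjusted p = 0.034). From 6 h to 24 h over OP9-GFP 7 of 51 rose and 11 fell, where 19.2% of genes passed. The hyaluronan synthase gene Has1 rose (0.62 ± 0.18, adjusted p = 0.027) from only 3 to 10 reads per library at 6 h to 12 to 22 at 24 h. The third synthase gene, Has3, differed by 0.0065 (adjusted p = 0.98). Genes that fell included the hyaluronan receptor gene Layn (-0.76 ± 0.20, adjusted p = 0.016) and the innate immune receptor gene Tlr4 (-0.78 ± 0.15, adjusted p = 0.0019). The tenascin C gene Tnc fell too (-1.17 ± 0.30, adjusted p = 0.014).

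**Figure D4:**
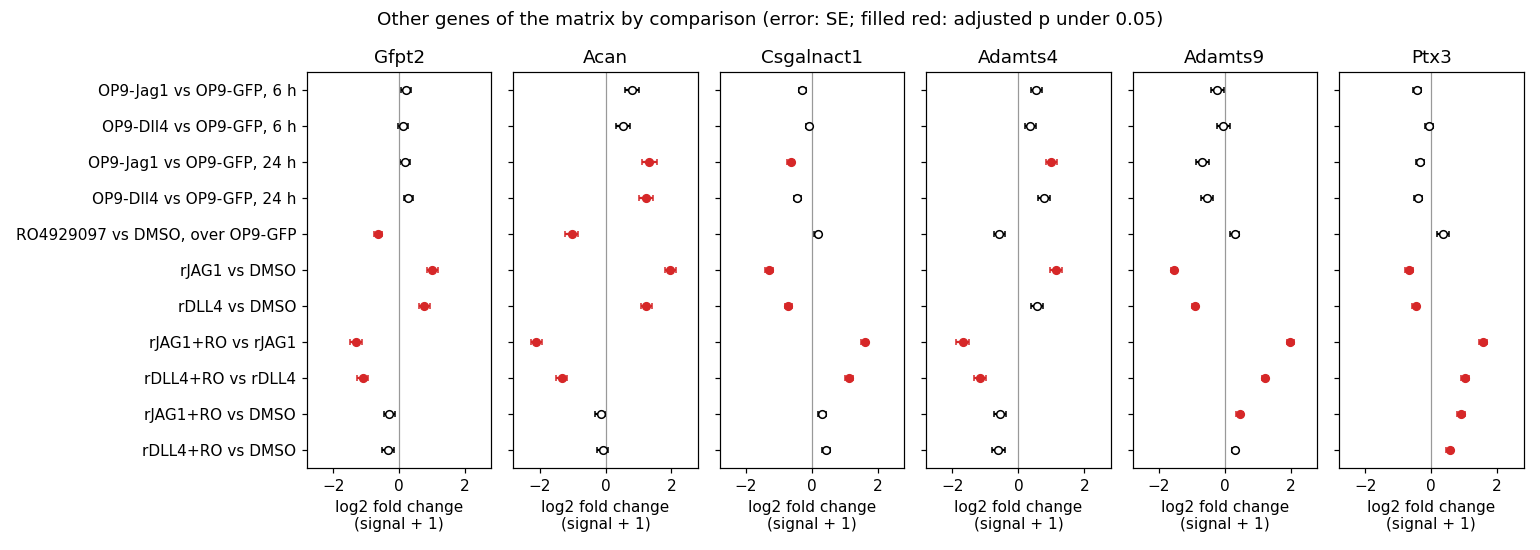
Log2 fold change of signal + 1 (x axis) with SE of 6 other matrix genes in 11 comparisons (y axis), filled red where the adjusted p was under 0.05. Acan, Adamts4 and Gfpt2 lie above 0 with ligand and below 0 with inhibitor on ligand, Csgalnact1, Adamts9 and Ptx3 the reverse, and Acan values with recombinant ligand and inhibitor rest on 0 to 2 reads per library.

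Genes of the stroma, endothelial and cardiomyocyte marker lists moved beside some of these results. At 24 h the summed stroma list was 4941 to 7409 over OP9-Jag1 and 4642 to 6843 over OP9-Dll4, against 3499 to 5543 over OP9-GFP. Pdgfrb lay at 5.26 to 9.79, 4.82 to 6.81 and 2.91 to 3.93 in these groups, in that order. Mean Pdgfra was lower over OP9-Jag1 (7.84) and OP9-Dll4 (8.81) than over OP9-GFP (8.94). Mean Cxcl12 and Kitl were lower than over OP9-GFP only over OP9-Dll4. The third experiment held MEEC and no OP9 cells, so the list values there are those of MEEC. In it the summed stroma marker list was 5042 to 5777 on rJAG1 and 4959 to 5451 on rDLL4. With DMSO it was 3129 to 4074, and with ligand and inhibitor 3461 to 3912. Most of that sum came from the collagen genes Col1a1 (3373 ± 259 on rJAG1, 2239 ± 160 with DMSO) and Col1a2 (1157 ± 152 and 759 ± 204). Pdgfra of the same list ran the other way, at 4.26 ± 0.38 on rJAG1 against 6.51 ± 1.73 with DMSO. Dcn stood at 514 ± 43.6 on rJAG1, 461 ± 150 with DMSO and 626 ± 12.0 with rJAG1 and inhibitor. The summed endothelial list was 109 to 121 on rJAG1 and 138 to 157 with inhibitor added, and 119 to 149.9 on rDLL4 and 153 to 170.7 with inhibitor, while DMSO libraries ran from 116 to 169.8. Its angiopoietin receptor gene Tek stood at 48.1 ± 8.50 on rJAG1 and 81.9 ± 9.20 with inhibitor, and the endocardial factor Nfatc1 at 5.96 ± 1.38 and 2.25 ± 0.22. Over OP9-Dll4 at 24 h the summed cardiomyocyte list was 43.8 to 79.1, against 29.5 to 33.2 over OP9-GFP. Mean Tnnt2 stood at 32.4 and 26.6 in these groups, and Myl7 at 3.42 and 3.97. Myh7 held 96 to 265 reads per library over OP9-Dll4 at 24 h, against 0 to 2 over OP9-GFP and 0 over OP9-Jag1. Actc1 held 54 to 125 and Myl2 28 to 58, against 0 reads over OP9-GFP and OP9-Jag1 at 24 h. Ttn held 24 to 55, against 2 to 5 over OP9-GFP and 2 to 4 over OP9-Jag1. At 6 h the highest OP9-Dll4 library held 86 Myh7 reads, against at most 1 over OP9-GFP or OP9-Jag1. The part of these lists in the member values was not tested.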

How the data were processed

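RNA-seq libraries of MEEC (PicoPure RNA, NEBNext Ultra kit, per the labels' protocols) were summarised by the authors with FastQC, cutadapt, RSEM and limma on build GRCm38, per the submitters' processing notes; the sources used here give no versions, annotation release or strand setting. The deposited values are normalized signal per gene: whole reads plus 0.5, divided by a scaled library size. Division by the value of 1 read returned whole reads for 100% of values within 0.01 reads in every library, from at least 100 low values in 30 of 41 libraries.

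Each table was fitted apart, since the 3 were normalized separately. log2(signal + 1) was fitted with limma 3.58.1 (R 4.3.3, mean-variance trend, all groups of a table in 1 fit, no block), with Benjamini-Hochberg adjustment over 13886, 12984 and 13407 genes. Requiring a signal of 1 in at least 3 libraries (4 in the second experiment) removed 0 genes. Alternatives were a pseudocount of 0.5, quantile normalization, a mean signal of 5, no filter, only the groups compared, replicate blocks, each library left out, and edgeR 4.0.16 quasi-likelihood with TMM on the recovered reads. The fits were tested on simulated data. Exonic lengths and positions come from GENCODE on GRCm38 and promoters from RefSeq.

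Libraries carry replicate numbers in their titles. Same-numbered libraries correlated above 0.1 in each pairwise comparison (0.11 to 0.68), with 2 exceptions. These were OP9-GFP at 24 h against 6 h (0.06 to 0.10, other pairs at most 0.0026) and rDLL4+RO against rDLL4 (0.08 to 0.40). For those 2 the blocked values stand only in the closing section. Elsewhere they stand where they change a member's call or a count of calls. The cut of 0.1 does not always set same-numbered pairs apart. Differently numbered pairs reached 0.29 for OP9-Dll4 against OP9-GFP at 6 h (lowest same-numbered 0.27). They reached 0.18 for rDLL4 against DMSO (0.15). For rDLL4 against rJAG1 they reached 0.111 (0.1115), and for OP9-Dll4 against OP9-Jag1 at 6 h 0.1863 (0.1864). Blocked values of these comparisons thus rest on weaker pairing. The labels do not state that replicate libraries are separate cultures. The p-values thus reflect only how far these samples spread, and that spread may be technical. No pair of libraries of 1 group agreed within sampling noise (chi-square per gene 5.42 to 52.5 over 45 pairs). In the third experiment DMSO library 3 gave 35.2 and 52.5 with DMSO libraries 1 and 2, which gave 11.1 with each other. Pairs within the other groups of that experiment reached at most 22.1. DMSO library 3 is part of every comparison with DMSO alone there. The named genes are the 6 members, at most 4 matrix list genes per direction with the largest change among those called, and the 3 genes most like each member. Members and lists were chosen with earlier results of these data known.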

Additional observations from a re-analysis of the deposited data

Results flagged for a closer look

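Vcan in the second experiment was the value that stood apart. Library 1 lay far above the other 3 libraries both over OP9-GFP after DMSO (40.6 against 14.9 to 18.4) and after RO4929097 (46.4 against 12.0 to 15.7). The gap to the nearest library made up 0.862 and 0.894 of each group's range, above the critical value of 0.829 for 4 libraries. The 5 genes in the 2 groups of 4 libraries gave 10 tests, of which these 2 stood out, where chance gives about 1 in 20. Both are Vcan in library 1, and same-numbered libraries of these groups go together, so the 2 are not independent. The Has2, Cemip, Cd44 and Hyal2 values of the same libraries did not stand apart by this measure.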

How the results depend on the processing

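No called member value reversed under any alternative. Of 5 genes in 18 comparisons, all 90 values stayed on their side of the threshold with a pseudocount of 0.5, a mean signal of at least 5, and edgeR on recovered reads, and 89 of 90 with quantile normalization. Omitting the filter gave the same fit, since the filter removed 0 genes. With the replicate number as a single block 11 of 90 values newly passed and 0 were lost. With the block within each time the count of members called went to 2 over OP9-Jag1 at 6 h (from 0), to 4 over OP9-Dll4 at 24 h (from 1, or 2 with a single block) and to 1 for the change of the OP9-Jag1 effect with time (from 0). With the replicate number as a block it went to 1 for RO4929097 over OP9-GFP (from 0), 2 for rDLL4 (from 1), 3 for rJAG1+RO against DMSO (from 1) and 4 for rDLL4+RO against DMSO (from 1). The numbers do not pair the samples by the check for rDLL4+RO against rDLL4, where the block gave 5 members (from 3), adding Cd44 (adjusted p = 0.0078) and Hyal2 (0.022), and 5 list genes up and 9 down (from 3 and 8; 17.3% of genes), nor for OP9-GFP at 24 h against 6 h, where Vcan also passed with the block (adjusted p = 0.02) and 14 list genes rose and 17 fell (from 7 and 11; 32.7% of genes). Fitting only the groups compared gave 0 for rDLL4 and 0 for rDLL4+RO against DMSO (from 1 each). Leaving out 1 library at a time, the count ran from 1 to 2 over OP9-Jag1 at 24 h, 0 to 1 over OP9-Dll4 at 24 h, 0 to 2 for rDLL4, 1 to 2 for rJAG1+RO against DMSO and 1 to 2 for rDLL4+RO against DMSO. The 19 values called with all libraries gave 114 values with 1 library left out, of which 83 kept the call and 31 lost it. Of 496 such values not called with all libraries, 6 gained a call. These shifts' causes were not tested. Depth limits weakly expressed list genes such as Acan, which held 0 to 4 reads in some libraries.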
